A study of Homo sapiens with 11 samples.

Results

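The intervals described here are stretches of chromatin that carried trimethylated lysine 36 of histone H3 (H3K36me3) in MDA-MB-231 cells lacking the protein mdig (KO) and in which the list of cells with mdig (WT) held no H3K36me3 interval. An interval of the KO list on chromosomes 1 to 22 or X was a member when not even 1 bp of it overlapped a WT interval. Of the 17800 KO intervals 2586 met this rule, and they are called gained below. They made up 14.5% of the list, with a 95% Wilson confidence interval of 14.0% to 15.1%, and covered 18.5 Mb of its 328.8 Mb. The other 15214 KO intervals overlapped WT and are called kept. The mirror set consisted of the 2545 WT intervals with no KO overlap, 14.5% of the 17507 in the WT list and 17.8 Mb long, and is called WT-only.

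MDA-MB-231 is a human triple-negative breast cancer line. Per the labels CRISPR-Cas9 was used to make both the KO and the WT cells. Both were grown with blasticidin, the KO cells made no mdig protein, and the WT cells made it at a normal level. The labels do not say whether either is a single clone. Chromatin immunoprecipitation followed by sequencing (ChIP-seq) was done with antibodies against 4 histone marks and against mdig, labelled MINA or RIOX2, with 1 library per antibody and genotype.

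H3K36me3 is laid down by SETD2, which travels with the elongating RNA polymerase II, so the mark lies over the bodies of transcribed genes. H3K4me3 sits at their promoters and start sites. H3K9me3 and H4K20me3 are marks of silent heterochromatin, and H4K20me3 is commonly placed downstream of H3K9me3. Both H3K36me3 and H3K9me3 are known to lie over zinc finger genes, many of which are on human chromosome 19. Mdig, also called MINA53 or RIOX2, belongs to the JmjC family of oxygenases.

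The deposited lists give the start and end of each interval and no height or score. The members were chosen by their H3K36me3 positions in the KO and WT lists themselves, so the number, positions, widths and distances of the gained intervals describe the choice and were not tested. The other marks took no part in the rule. With 1 library per antibody and genotype no test was possible for them either, and the Wilson intervals cover counting error only. The depth of the libraries is unknown. The H4K20me3 list was the one that differed most in the KO direction, with 149.6 Mb in KO and 67.2 Mb in WT. The MINA list differed most in the other direction, with 35.7 Mb in KO and 119.6 Mb in WT.

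Gained intervals were narrow. Their median width was 5.6 kb with quartiles of 3.6 and 8.4 kb, against a median of 12.6 kb with quartiles of 6.8 and 26.0 kb in kept intervals. WT-only intervals had the same median of 5.6 kb. The narrowest gained interval spanned 0.6 kb and the widest 86.6 kb, while 8 reached at least 50 kb. Of KO intervals under 2 kb 41.4% were gained, of those from 2 to 5 kb 32.6%, from 5 to 10 kb 21.0% and from 10 to 20 kb 8.58%. Of the 5246 KO intervals of 20 kb or more 1.75% were gained. The shares of WT-only intervals in the WT list ran almost alike, at 38.8%, 34.8%, 22.3%, 8.15% and 1.48% in the same classes. The rule itself favours narrow members, since a wider interval has more bases that can overlap the other list. The fall with width is therefore no separate result, and it was nearly the same in both lists.

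**Figure D1:**
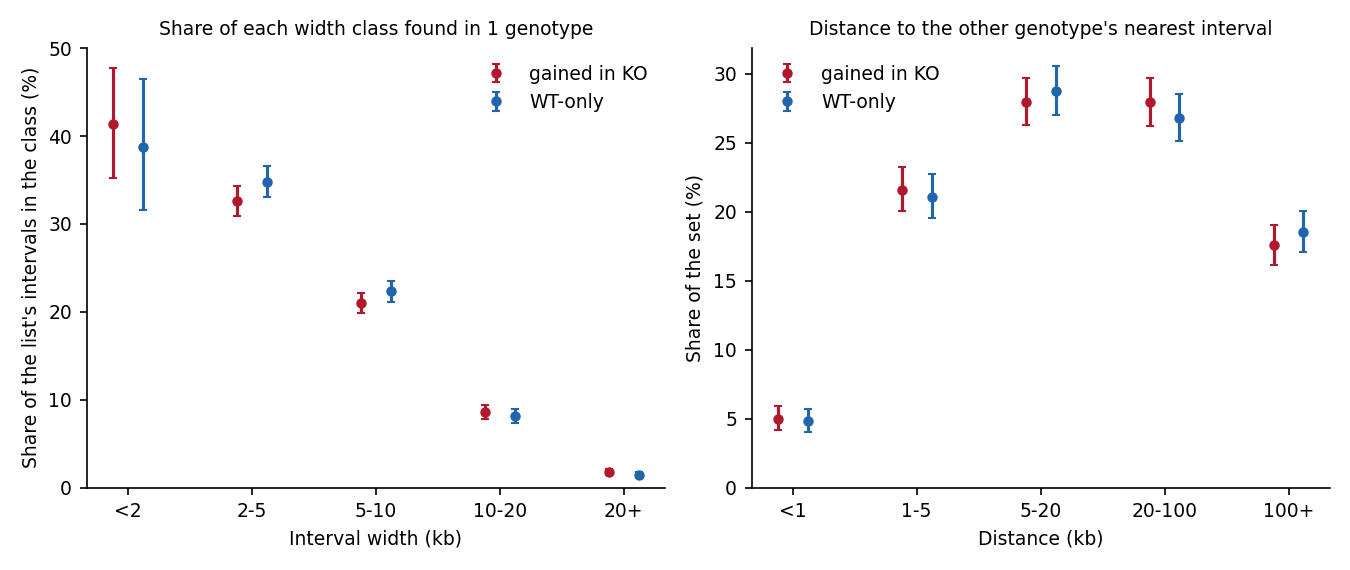
Left: share in percent of the KO list's intervals that were gained and of the WT list's intervals that were WT-only, by interval width in kb. Right: share of each set by its distance in kb to the nearest H3K36me3 interval of the other genotype. Points are shares and bars 95% Wilson intervals. The gained share went down from 41.4% under 2 kb to 1.75% at 20 kb and wider, and the points of the 2 sets lie close together in each class.

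Most gained intervals did not adjoin a WT domain. The median distance to the nearest WT interval was 16.4 kb, with quartiles of 4.4 and 58.5 kb and a maximum of 2903.6 kb. Of the gained intervals 129 (4.99%) lay under 1 kb from WT, 558 (21.6%) at 1 to 5 kb, 723 (28.0%) at 5 to 20 kb, 722 (27.9%) at 20 to 100 kb and 454 (17.6%) at 100 kb or more. The distance of WT-only intervals to the nearest KO interval had a median of 16.0 kb and quartiles of 4.6 and 60.4 kb. The edge of the rule was thinly filled. Just inside it, 8 gained intervals touched a WT interval with no shared base and 10 were 200 bp away. Just outside it, 17 kept intervals overlapped WT by 200 bp and 92, these included, by at most 1 kb.

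A WT domain stood within 10 kb of 1065 gained intervals (41.2%), on both sides of 239 (9.24%) and on 1 side of 826 (31.9%). The remaining 1521 (58.8%) had none so near. The nearest WT domain was itself narrow, with a median of 9.4 kb against 11.4 kb over all WT domains. Gained intervals within 5 kb of WT had a median width of 4.6 kb and those at 100 kb or more one of 6.0 kb. Distance from WT thus did not go with narrower intervals.

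Part of the gained intervals came in strings, and no like count is given for WT-only intervals. For 1140 of them (44.1%) the nearest KO interval was another gained one. A gained interval must fit between WT domains, so the rule itself favours wide gaps. The members fell into 1569 gaps between WT domains, whose median width was 116.2 kb against 9.4 kb over all WT gaps. Of these gaps 1077 (68.6%) held 1 gained interval, 272 held 2, and 220 held at least 3. The 220 gaps together held 965 gained intervals, and 1 gap held 23. The median gap was 7.71% filled, and 98 gaps (6.26%) were filled to at least 50%.

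The gap with the largest gained length lay on chromosome 9 from 137331401 to 138374200 (all coordinates are 1-based on hg19). It held 7 gained intervals with 197.8 kb in all, 18.97% of its 1042.8 kb, spaced 0.8 to 1.6 kb apart. H4K20me3 covered 56.1% of this gap in KO and 2.49% in WT, and H3K9me3 28.2% in KO and 51.0% in WT. These are shares of the whole gap and not of its gained intervals. Its member of 86.6 kb had no KO H4K20me3 on it, and its member of 47.0 kb had 5.11% of its length covered. The gap on chromosome 15 from 44216401 to 44750600 held 23 gained intervals of 2.0 to 24.2 kb, 173.0 kb in all and 32.4% of the gap. It had no H3K9me3 interval in either genotype, 5 H3K4me3 intervals in KO and 3 in WT. The gap on chromosome 6 from 42252801 to 42531400 held 3 wide gained intervals of 44.4, 51.4 and 68.6 kb that stood 0.8 to 1.2 kb apart and filled 59.0% of it. The string on chromosome 15 was the loosest of the 3, spread over 519.4 kb with a median spacing of 5.9 kb.

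The chromosomes differed widely. On chromosome 15, 310 of 735 KO intervals were gained, a share of 42.2% (38.7% to 45.8%), and 22 of 594 WT intervals were WT-only (3.70%). Chromosome 9 followed with 206 of 720 (28.6%), against 9.65% WT-only. Chromosome X had 158 of 582 (27.1%), against 13.8% WT-only. Chromosome 7 held 256 gained intervals (25.7%) and chromosome 4 held 221 (24.2%). The lowest shares were on chromosome 11 with 40 of 744 (5.38%), against 18.5% WT-only, chromosome 17 with 55 (6.66%) and chromosome 12 with 72 of 895 (8.04%). Chromosomes 15, 7, 4 and 9 together held 993 gained intervals, 38.4% of all, and 18.9% of the KO list. The gained share was above the WT-only share on 12 chromosomes and below it on 11. On chromosome 19 10.3% of KO intervals were gained, and its 3.21% of WT-only intervals was the lowest such share of the 23 chromosomes.

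**Figure D2:**
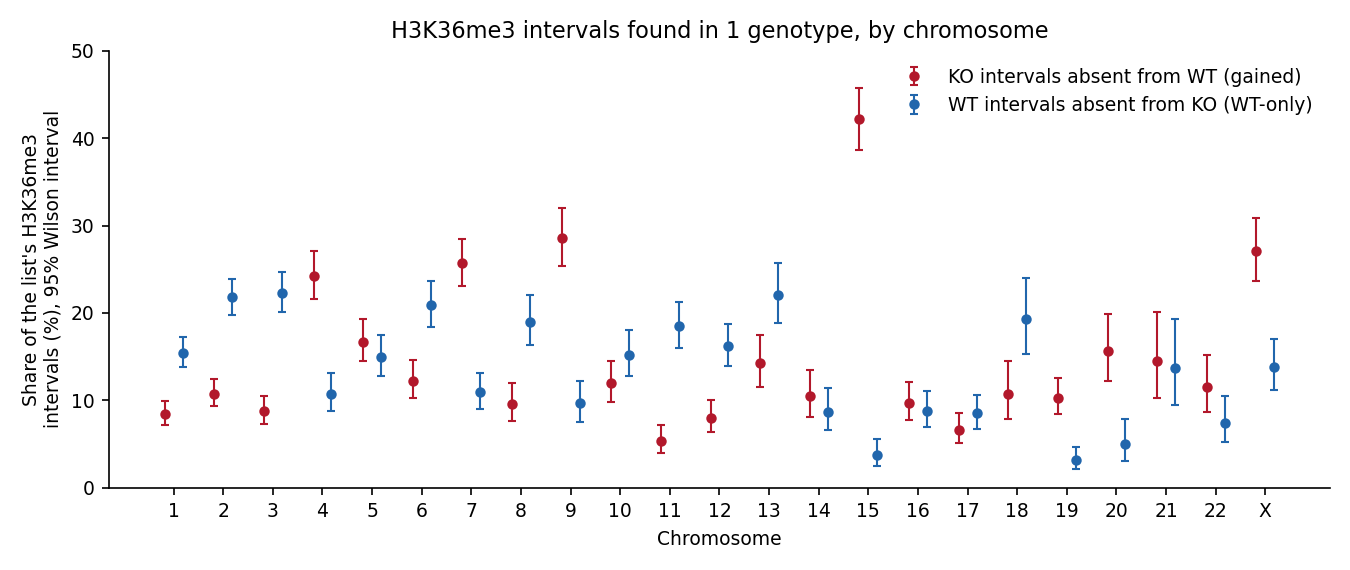
Share in percent of the KO list's H3K36me3 intervals that were gained and of the WT list's intervals that were WT-only, for each chromosome. Points are shares and bars 95% Wilson intervals. Chromosome 15 stands highest at 42.2% gained, followed by chromosomes 9, X, 7 and 4, where the WT-only share is lower than the gained one.

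Long stretches of chromosomes, cut from H3K4me3 alone, were then compared with the rest. A 2-state model of the H3K4me3 covered length in bins of 2 Mb, KO over WT, gave 9 raised stretches on 7 chromosomes, 651.3 Mb or 21.5% of the span of the lists. They took in all of chromosome 15, chromosome 4 from 82000001, chromosome 5 from 108000001, chromosome 9 from 34000001, chromosome 7 up to 92000000 and from 124000001, chromosome 14 up to 62000000, and X from 52000001 to 66000000 and from 98000001. Inside them 1204 of 3705 KO intervals were gained, 32.5% (31.0% to 34.0%), and outside them 1382 of 14095, 9.80% (9.32% to 10.3%). The stretches held 46.6% of gained, 16.4% of kept and 5.85% of WT-only intervals. WT-only intervals went the other way, at 4.76% of the WT list inside and 16.7% outside. The difference in gained share was also there within chromosomes. On chromosome 4, 33.9% of KO intervals were gained inside the stretch and 8.16% outside it, on chromosome 5 25.5% inside and 7.81% outside, and on chromosome 7 29.7% inside and 7.22% outside. Chromosome 9 had 32.3% inside and 6.73% outside, and X had 40.4% inside and 14.2% outside. Chromosome 14 did not follow, with 24 of 215 (11.2%, 7.62% to 16.1%) inside and 30 of 300 (10%, 7.09% to 13.9%) outside, where the Wilson intervals overlapped.

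All 5 antibodies covered relatively more in KO inside these stretches. The covered length in KO over WT was 1.29 inside and 0.949 outside for H3K36me3, and 2.16 inside and 1.06 outside for H3K9me3. It was 9.50 inside and 1.75 outside for H4K20me3, and 0.959 inside and 0.241 outside for MINA. For H3K4me3, from which the stretches were cut, it was 1.05 inside and 0.808 outside. What such shifts shared by all antibodies contributed to the gained intervals was not tested. Across the 23 chromosomes the gained share and the H3K4me3 ratio of covered length had a Spearman rho of 0.69, as a description of lists from the same cells. Farther from WT more of the gained intervals lay in the stretches, 24.0% of those under 1 kb from WT and 56.8% of those at 100 kb or more.

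The 10 widest gained intervals show how varied the members were. The widest, of 86.6 kb on chromosome 9 from 137652601 to 137739200, stood 321.2 kb from WT and overlapped H3K9me3 in both genotypes and MINA in KO. Its neighbour from 137604601 to 137651600, of 47.0 kb, had 42.1% of its length under H3K9me3 in KO and 60% in WT. Both lay in the raised stretch of that chromosome and neither had H3K4me3 within 10 kb. The next widest, of 78.8 kb on chromosome 3 from 38612001 to 38690800, overlapped H3K4me3 in both genotypes, H3K9me3 and H4K20me3 in KO, and MINA in WT. On chromosome 6, the interval of 68.6 kb from 42307201 to 42375800 overlapped H3K4me3 in both genotypes. The interval of 51.4 kb from 42255001 to 42306400 had 27.2% of its length under H4K20me3 in KO and none in WT. These 2 belong to the string on chromosome 6 described above, which is outside the raised stretches.

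On chromosome 7, the interval of 65.6 kb from 75164801 to 75230400 overlapped none of the other marks, and the nearest H3K4me3 was 3.6 kb away in KO and 4.0 kb away in WT. A second one there, of 62.0 kb from 131810601 to 131872600, had H4K20me3 over 45.5% of its length in KO and none in WT. On chromosome 20, the interval of 57.0 kb from 42570601 to 42627600 was almost filled with H4K20me3, 86.7% in KO and 70.5% in WT. This was the only one of the 10 with H4K20me3 in WT. The other 2 were an interval of 50.2 kb on chromosome 20 from 50013201 to 50063400 and one of 47.4 kb on chromosome 11 from 36442801 to 36490200. Of the 10 widest, 4 lay in raised stretches. H3K4me3 overlapped 2 of them in KO and 2 in WT, H3K9me3 4 in KO and 3 in WT, H4K20me3 5 in KO and 1 in WT, and MINA 2 in KO and 5 in WT.

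Among gained intervals of at least 5 kb, the 3 farthest from WT spanned 5.6, 7.2 and 5.8 kb. A pair on chromosome X from 86976201 to 86981800 and from 86890201 to 86897400 stood 2630 and 2544 kb from the nearest WT domain. H3K4me3 covered 21.4% of the member at 86976201 in KO, and the nearest WT H3K4me3 interval was 199.8 kb away. The other, of 5.8 kb on chromosome 18 from 37328601, stood 2201.8 kb from WT and had no H3K4me3 nearer than 42.2 kb in KO and 42.0 kb in WT.

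H3K4me3 near the gained intervals was almost the same in both genotypes. An H3K4me3 interval lay within 10 kb of 1208 gained intervals in KO, 46.7% (44.8% to 48.6%), and of 1206 in WT, 46.6% (44.7% to 48.6%). It was there in both genotypes for 1151 (44.5%), in KO alone for 57 (2.20%), in WT alone for 55 (2.13%) and in neither for 1323 (51.2%). H3K4me3 within 10 kb in KO alone was thus uncommon among gained intervals, and yet more common than among kept ones, where 72 of 15214 had it (0.473%), or WT-only ones, where 10 of 2545 had it (0.393%). Inside the raised stretches 2.99% of gained and 1.16% of kept intervals had it, and outside them 1.52% of gained and 0.338% of kept. H3K4me3 in WT alone was near 1.25% of gained intervals inside and 2.89% outside. The stretches were cut from these H3K4me3 lists, so such opposite shifts between inside and outside are built into the cut. Of the 776 KO H3K4me3 intervals that overlapped a gained interval, 27 were absent from WT, which is 3.48% beside 5.85% of the whole KO H3K4me3 list and 1.14% of those that overlapped a kept interval. Of the 1279 KO H3K4me3 intervals within 10 kb of a gained interval, 60 were (4.69%), against 1.57% near kept ones. Among WT H3K4me3 intervals that overlapped gained ones, 35 of 780 were absent from KO, 4.49% beside 14.9% of the whole WT list.

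Kept intervals had H3K4me3 within 10 kb more often, 57.2% in KO and 59.1% in WT. WT-only intervals had it less often, 24.0% in KO and 28.3% in WT. Part of the first difference went with width. From 2 to 5 kb, KO H3K4me3 lay near 42.7% of gained and 31.9% of kept intervals, and at 5 to 10 kb near 47.4% of gained and 43.9% of kept. At 20 kb and wider the order was the other way, with 53.3% of gained and 75.6% of kept intervals. WT-only intervals had the lowest share in all 5 width classes, between 19.4% and 33.8%. At like widths, then, gained and WT-only intervals differed in how often H3K4me3 was near, and gained intervals under 10 kb had it near at least as often as kept ones.

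**Figure D3:**
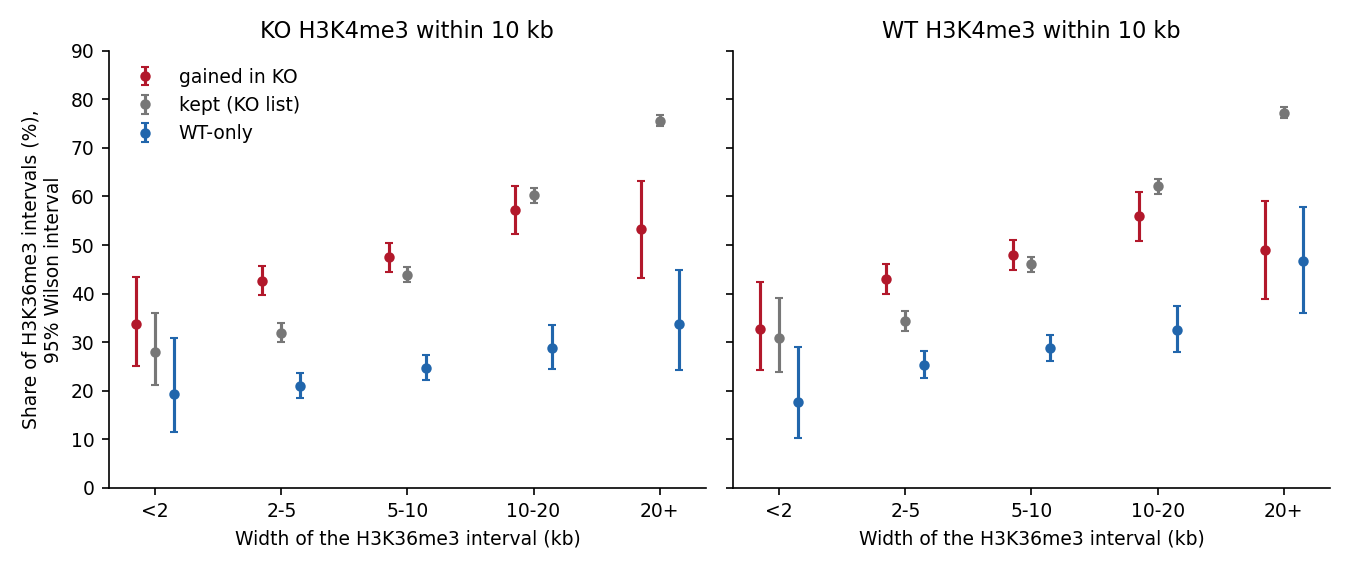
Share in percent of H3K36me3 intervals with an H3K4me3 interval within 10 kb, by the width of the H3K36me3 interval in kb, for the KO H3K4me3 list (left) and the WT list (right). Points are shares of gained, kept and WT-only intervals and bars 95% Wilson intervals. From 2 to 5 kb the KO shares were 42.7% of gained, 31.9% of kept and 21.0% of WT-only intervals, and at 20 kb and wider 53.3%, 75.6% and 33.8%.

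The raised stretches were cut from the covered length of these same H3K4me3 lists. A higher KO over WT width of H3K4me3 intervals inside them is therefore built into the cut and is no separate result. Near gained intervals 1116 H3K4me3 intervals paired one to one between genotypes, and the median width in KO was 0.95 of that in WT. This ratio was 1.06 inside the stretches and 0.886 outside them, and near kept intervals it was 1.03 inside and 0.875 outside. The H3K4me3 share of gained intervals was lower inside the stretches, 40.6% in KO and 38.9% in WT, than outside them, 52.0% in KO and 53.4% in WT. By chromosome it was highest on 19, where H3K4me3 lay near 72 of 84 gained intervals in each genotype (85.7%), and lowest on 4, with 26.7% in KO and 27.1% in WT.

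For the 826 gained intervals with a WT domain within 10 kb on 1 side, the place of H3K4me3 was read relative to that domain. KO H3K4me3 overlapped 272 of them (32.9%), stood on the domain's side of 64 (7.75%) and on the far side of 81 (9.81%). It was not within 10 kb of the other 409 (49.5%). The count was somewhat higher on the far side, and this difference was not tested. Outward from the edges of gained intervals, KO H3K4me3 covered 17.4% of positions at 1 kb and 7.31% at 10 kb. At the same distances it covered 24.8% and 9.19% around kept intervals and 5.91% and 3.81% around WT-only ones.

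**Figure D4:**
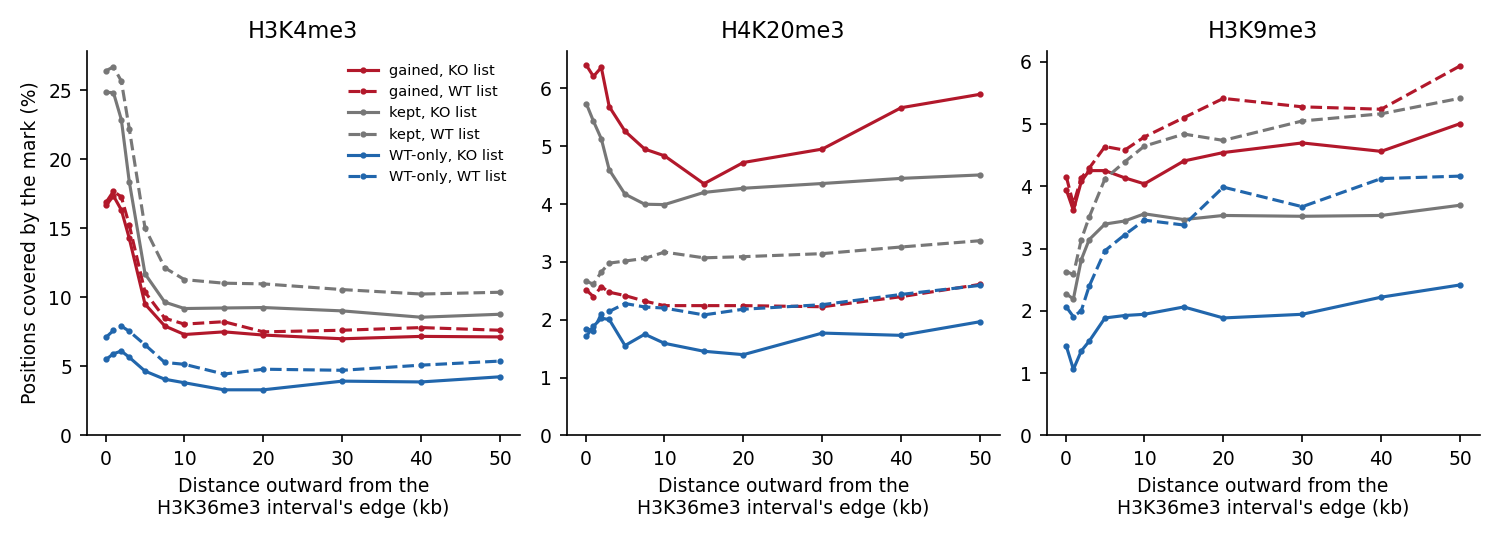
Share in percent of positions covered by H3K4me3, H4K20me3 or H3K9me3 against the distance in kb outward from the edges of gained, kept and WT-only H3K36me3 intervals, without error bars. Solid lines are KO lists and dashed lines WT lists. KO H3K4me3 stood at 17.4% of positions 1 kb from gained intervals and 24.8% from kept ones, and KO H4K20me3 lies above WT H4K20me3 around gained intervals at every distance drawn.

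The widest gained intervals with H3K4me3 near them in KO and not in WT lay on 3 chromosomes. The first, of 43.6 kb on chromosome 5 from 175567601 to 175611200, was overlapped by KO H3K4me3 over 7.80% of its length and by KO H4K20me3 over 36.7%, and its nearest WT H3K4me3 interval was 14.6 kb away. The second, of 29.4 kb on chromosome 12 from 106478801 to 106508200, touched a KO H3K4me3 interval at its edge, and the nearest one in WT was 20.8 kb away. The third, of 25.2 kb on chromosome 15 from 58915001 to 58940200, had KO H3K4me3 over 9.52% of its length and none in WT within 99.0 kb.

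H3K9me3 lay on a small share of gained intervals, which by any overlap and over all widths was close to that of kept ones. The mark overlapped 224 in KO, 8.66% (7.64% to 9.81%), and 214 in WT, 8.28% (7.27% to 9.40%). It was there in both for 171, in KO alone for 53 and in WT alone for 43, while 2319 (89.7%) had it in neither. Kept intervals had it in 8.17% in KO and 7.83% in WT, and WT-only ones in 4.13% in KO and 5.46% in WT. Kept intervals were wider, however. Among intervals of 2 to 5 kb, KO H3K9me3 overlapped 6.78% of gained and 4.77% of kept ones, and under 2 kb 8.16% and 5.76%. Inside the raised stretches H3K9me3 overlapped 96 gained intervals in KO (7.97%, 6.57% to 9.64%) and 71 in WT (5.90%, 4.70% to 7.37%). Outside them it overlapped 128 in KO (9.26%, 7.84% to 10.9%) and 143 in WT (10.3%, 8.85% to 12.1%). The Wilson intervals of KO and WT overlapped in both places, but they take no account of both lists being read on the same intervals. Inside the stretches 33 gained intervals had H3K9me3 in KO alone and 8 in WT alone. Outside them 20 had it in KO alone and 35 in WT alone. The directions were thus opposite in these counts, which were not tested. Kept intervals stood at 8.68% in KO and 6.16% in WT inside, and at 8.07% and 8.16% outside. H3K9me3 in WT alone was found on 1.66% of gained, 1.499% of kept and 2.20% of WT-only intervals, so the gained share was near those of the other sets. By length, H3K9me3 covered 4.84% of the gained intervals in KO and 4.88% in WT, while it covered 10.1% of the span in KO and 8.40% in WT. In kept intervals it covered 2.28% of the length in KO and 2.32% in WT. KO H3K9me3 intervals on gained members were absent from WT in 55 of 229 cases, 24.0% beside 47.2% of that whole list and 24.0% of those on kept members. WT H3K9me3 intervals on gained members were absent from KO in 35 of 213 cases, 16.4% beside 31.4% of the whole WT list.

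Chromosome 19 held 3.25% of all gained intervals and a larger part of this overlap. H3K9me3 overlapped 40 of its 84 gained intervals in KO (47.6%) and 39 in WT (46.4%), and H4K20me3 45 in KO (53.6%) and 27 in WT (32.1%). These 40 were 17.9% of all gained intervals with KO H3K9me3. Without chromosome 19 the H3K9me3 share was 7.35% in KO and 6.99% in WT. No like shares are given for kept or WT-only intervals of this chromosome, so these values are not shown to be particular to gained ones. The 3 widest gained intervals that had H3K9me3 in WT and none in KO were on other chromosomes. One of 45.2 kb on chromosome 21 from 45338601 to 45383800 had 10.2% of its length under WT H3K9me3. Those on chromosome 10 from 103412601 to 103437000 and chromosome 12 from 106455001 to 106478000 had 7.38% and 15.7%. H3K9me3 in WT thus covered only a small piece of each.

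H4K20me3 overlapped more gained intervals in KO, 313 or 12.1% (10.9% to 13.4%), than in WT, 106 or 4.10% (3.40% to 4.93%). It was there in both for 88, in KO alone for 225 (8.70%) and in WT alone for 18. The whole KO H4K20me3 list was larger too. H4K20me3 overlapped 14.6% of kept intervals in KO and 6.11% in WT, and 80.4% of all KO H4K20me3 intervals were absent from WT. H4K20me3 in KO alone was found on 10.1% of kept intervals, a share above the 8.70% of gained ones. Kept intervals were wider, however, and these shares take no account of width. Among intervals of 2 to 5 kb, KO H4K20me3 overlapped 7.58% of gained and 5.26% of kept ones. Under 2 kb it overlapped 4.08% of gained and 5.76% of kept ones. Of the 330 KO H4K20me3 intervals on gained members 228 were absent from WT, 69.1%, against 66.9% of those on kept members. In WT-only intervals the H4K20me3 shares were closer, with 4.01% in KO and 3.65% in WT.

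By length the order of gained and kept intervals was different. H4K20me3 covered 7.14% of the gained intervals in KO and 3.16% in WT, against 2.99% of the kept ones in KO and 1.70% in WT, and 4.93% of the span in KO and 2.21% in WT. Inside the raised stretches it overlapped 11.05% of gained intervals in KO and 1.495% in WT, and outside them 13.02% in KO and 6.37% in WT. Among gained intervals at 100 kb or more from WT, 16.3% had H4K20me3 in KO and 4.41% in WT. On chromosome X H4K20me3 overlapped 3.16% of gained intervals in KO. Chromosome 16 was lowest with 2.90% and chromosome 19 highest with 53.6%. The 3 widest gained intervals with H4K20me3 in KO and none in WT were those on chromosomes 3, 7 and 6 described above, where it covered 9.39%, 45.5% and 27.2% of the length.

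At least 1 of the repressive marks overlapped 413 gained intervals in KO (16.0%) and 252 in WT (9.74%). H4K20me3 without H3K9me3 accounted for 189 of them in KO and 38 in WT, and both marks together for 124 in KO and 68 in WT. In KO, H3K4me3 was more often near members with a repressive mark than near those without. H3K4me3 lay within 10 kb of 286 of the 413 gained intervals with a repressive mark in KO (69.2%), and of 42.4% of those without. In WT the shares were 50.8% with and 46.2% without. The kept intervals had the same order, with 83.6% and 51.2% in KO. Width and chromosome were not held equal in these shares. KO H4K20me3 overlapped 4.08% of gained intervals under 2 kb and 21.4% of those from 10 to 20 kb. In the same classes KO H3K4me3 was near 33.7% and 57.3%. On chromosome 19 both were frequent, with H4K20me3 on 53.6% and H3K4me3 near 85.7% of gained intervals in KO. Neither H3K4me3 within 10 kb nor a repressive mark was found for 1251 gained intervals in KO (48.4%) and 1256 in WT (48.6%), and for 1181 (45.7%) in both lists at once. Counting H3K4me3 by overlap in place of the 10-kb window, 1553 gained intervals (60.1%) had none of the other histone marks in KO or in WT. This was so for 48.5% of kept and 80.4% of WT-only intervals.

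**Figure D5:**
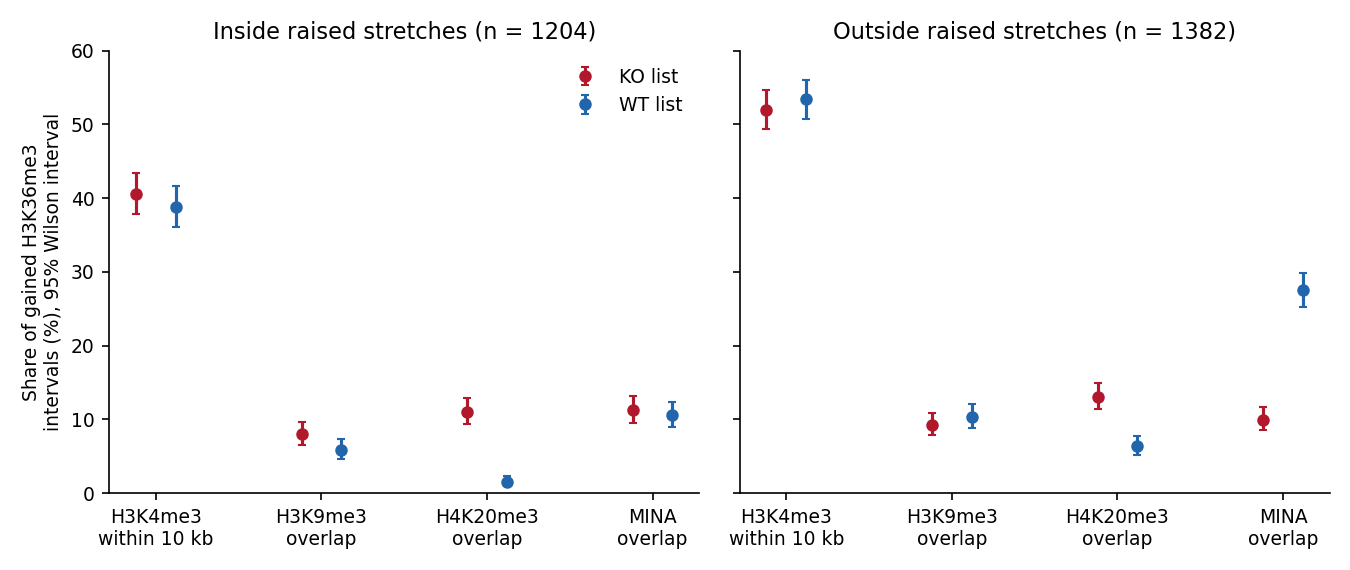
Share in percent of gained H3K36me3 intervals with H3K4me3 within 10 kb, or overlapped by H3K9me3, H4K20me3 or MINA, inside (left, 1204 intervals) and outside (right, 1382 intervals) the raised stretches. Points are shares in the KO and WT lists and bars 95% Wilson intervals. H4K20me3 stood at 11.05% in KO and 1.495% in WT inside the stretches, and MINA at 9.99% in KO and 27.5% in WT outside them.

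MINA overlapped 273 gained intervals in KO, 10.6% (9.43% to 11.8%), and 507 in WT, 19.6% (18.1% to 21.2%). Since KO cells made no mdig protein per the labels, the KO value gives what this antibody returned without it. MINA was there in both for 206, in KO alone for 67, in WT alone for 301 and in neither for 2012. Kept intervals were at 25.02% in KO and 36.9% in WT, and WT-only ones at 2.04% in KO and 7.15% in WT. The shares of kept intervals are not matched for width, and kept intervals were wider. Among gained intervals WT MINA overlapped 9.18% of those under 2 kb and 35.9% of those of 20 kb and wider. The difference between genotypes on gained intervals lay outside the raised stretches, with 9.99% in KO and 27.5% in WT there, against 11.2% in KO and 10.5% in WT inside them. Kept intervals were split in the same way, with 23.9% in KO and 38.4% in WT outside, and 30.7% and 29.5% inside. Of the 540 WT MINA intervals on gained members 288 were absent from KO, 53.3% beside 61.2% of the whole WT list. Of the 284 KO ones 55 were absent from WT, 19.4% beside 16.9% of the whole KO list.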

How the data were processed

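Each ChIP library has 1 deposited list of interval starts and ends. Per the submitters' processing notes the authors aligned reads with BWA and called intervals with SICER 1.1 on hg19, and the deposited positions carry no other measured value. The settings of SICER, its use of the input DNA and any adjustment for depth were not given in the sources used here. An input library, labelled with no genotype, and a merged list of all libraries were not used. Depth is unknown. A list called from more reads or better enrichment holds more intervals, and that cannot be told apart from a change in the mark.

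Overlaps of at least 1 bp, distances and covered lengths were computed on the 200-bp grid of the lists with Python 3.11.15, numpy 2.4.6, scipy 1.17.1 and matplotlib 3.10.9, tested on simulated data. The number of gained intervals was also 2586 with bedtools 2.31.1. Shares have 95% Wilson intervals. No p-value is given. Raised stretches were rebuilt by a 2-state hidden Markov model of the log2 KO over WT H3K4me3 covered length (1 kb added, limited to a log2 of 1 in either direction) in bins of 2 Mb. The chance of a change of state was 0.001, and bins with under 20 kb took their neighbours' state.

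The members, the stretches and the comparisons were chosen with earlier results of these data known. Named were the 10 widest members, the 3 farthest from WT of at least 5 kb, the 3 widest with H3K4me3 within 10 kb in KO alone, with H3K9me3 in WT alone and with H4K20me3 in KO alone, the 3 WT gaps with the largest gained length, and the chromosomes with the 3 highest and 3 lowest shares, with X. Chromosomes 4, 5, 7, 14, 16 and 19, the values within chromosomes and the distance and string counts were described after their values had been seen. An hg19 annotation or genome was not used here, so no gene or sequence is assigned to an interval. The alternatives were merging intervals within 5 kb, an overlap of 50% of the shorter interval, members of at least 2 kb or at least 5 kb from WT, autosomes, leaving out the stretches, other H3K4me3 windows and 50% coverage.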

Additional observations from a re-analysis of the deposited data

How the results depend on the processing

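Of 178 values recomputed under an alternative, 116 stayed within the 95% counting interval of the reported value or, for numbers of intervals, within 1.5 times of it. Outside the raised stretches 1382 gained intervals were left of 2586, and 1339 with intervals within 5 kb merged. The median width of 5.6 kb became 5.8 kb for members at least 5 kb from WT and 6.2 kb with merging. The median distance to WT of 16.4 kb became 29.4 kb at least 5 kb from WT, 12.2 kb outside the stretches, 32.8 kb with merging and 14.4 kb without chromosome 15, an alternative chosen after seeing the data. The difference in KO H3K4me3 between gained and kept intervals, -10.5 percentage points at 10 kb, was -5.27 outside the stretches, -19.6 with merging, -14.4 at 0 kb and -8.06 at 20 kb. Between gained and WT-only intervals it was 22.7 points, and 27.4 outside the stretches, 18.7 at 0 kb and 25.5 at 20 kb. The H4K20me3 difference between KO and WT on gained intervals, 8.005 points, was 6.66 outside the stretches, 10.3 with merging and 2.28 with 50% of the interval covered. That last rule also reversed the difference between gained and kept intervals in KO H4K20me3, which was 2.996 points against -2.51 by any overlap, and the cause was not tested. The MINA difference between KO and WT, -9.05 points, was -17.5 outside the stretches and -11.1 without chromosome 15. The overlap of 50% was applied only to number, share, width and stretches. No paired analysis was possible because each antibody and genotype has 1 library. Without replicates, depth or scores, the values describe these lists and cannot be told apart from differences between libraries.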
